A study of Homo sapiens with 8 samples.

Results

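The 8 genes described here encode liver-enriched transcription factors outside the nuclear receptor superfamily: FOXA1, FOXA2, FOXA3, CEBPA, CEBPB, ONECUT1, ONECUT2 and PROX1. They were chosen by name, as 8 of the 58206 genes in the count table, and all 8 passed the expression filter that left 14289 genes for testing. RNA was sequenced from Alexander1 cells, an established human hepatocellular carcinoma line, in 4 libraries of the line as obtained (labelled wt, Axin1 -) and 4 libraries of a derivative labelled Axin1+. Per the labels, the line carries an Axin1 without the part that binds the kinase GSK3, so that canonical Wnt signalling is always on, and the derivative carries full-length Axin1 from plasmid 24928. It was made by retroviral transfer and hygromycin B selection of clones. The labels enter this treatment for all 8 samples, do not say how many clones the 4 Axin1+ libraries represent, and do not say whether replicates were separate cultures, so p-values measure only the spread between these libraries.

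Liver-enriched factors work as a network in which each binds the regulatory regions of hepatocyte genes and of one another. The FOXA proteins are winged-helix pioneer factors that open chromatin of liver genes. The C/EBP proteins are basic leucine zipper factors of metabolic and acute-phase genes, the ONECUT proteins carry a cut domain and a homeodomain and act in hepatocyte and bile duct differentiation, and PROX1 is a homeobox factor of early hepatoblasts that also represses nuclear receptor targets. Canonical Wnt signalling sets zonal gene expression in the liver lobule.

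Values are CPM, counts scaled to each library's total after TMM normalization. Library totals were between 11232951 and 15263761 counts in the parental and between 12372436 and 26400782 in the Axin1+ group. AXIN1 itself lay between 47.4 and 55.3 CPM in the parental libraries and between 37.7 and 48.2 CPM in those labelled Axin1+ (log2 fold change -0.21, SE 0.12, adjusted p = 0.267 in edgeR's quasi-likelihood test). Its counted mRNA was thus not higher where the label says it was restored, and the direction of every difference below rests on the labels alone. Counts per gene do not separate the line's own Axin1 from the full-length Axin1 of the plasmid. Of the 8 hepatocyte markers checked, all were tested, with summed levels of 22980 to 27310 CPM in the parental and 17610 to 21250 CPM in the Axin1+ libraries. SERPINA1 made up most of this sum, at 16130 and 10360 CPM on average. At an adjusted p under 0.05 in edgeR, 2 of the 8 were higher and 3 lower in the Axin1+ libraries. The marker ALB, not called, was at 13.8 CPM in Axin1+ replicate 1 and at 444.9, 680.9 and 598.5 CPM in Axin1+ replicates 2 to 4. Its levels in parental replicates 1 to 4 were 46.7, 195.5, 207.7 and 159.3 CPM (log2 fold change 1.51, edgeR adjusted p = 0.211). Markers of fibroblasts summed to between 1.38 and 4.81 CPM, and the leukocyte gene PTPRC had at most 2 counts in any library. Of the endothelial markers, PECAM1 rose from 5.18 to 48.2 CPM on average, while TEK and CLEC4G had no count and CDH5, VWF, KDR and STAB2 at most 6. Of the 8 leukocyte markers LYZ was the one tested, with averages of 771 and 764 CPM. Bile duct markers summed to between 27.1 and 58.5 CPM in the parental and between 39.6 and 87.7 CPM in the Axin1+ libraries. Among them KRT19 stood at 34.4 CPM in Axin1+ replicate 1 and at 0.165, 1.43 and 0.0781 CPM in Axin1+ replicates 2 to 4. Whether any of these bears on the members was not tested.

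At an adjusted p under 0.05, 1 of the 8 members differed between the groups, and it was lower in the Axin1+ libraries. Over all genes tested 19.2% passed this threshold, 10.4% higher and 8.77% lower, so the members' share was not above that background. The values of the groups did not overlap for the same 1 member, against 23.9% of all genes (12.7% higher, 11.2% lower). With the threshold at 0.01 it was also 1 member, against 6.75% of all genes, and at an unadjusted p under 0.05 it was 3, against 33.5%. The median log2 fold change of the 8 members was -0.16, beside 0.003 over all genes, and 2 of the 8 lay above 0, against 50.2% of all genes. In bulk RNA, fewer cells that express a factor and less of its RNA per cell cannot be told apart. In each of 18 alternative analyses the number of members past the threshold was 1.

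**Figure D1:**
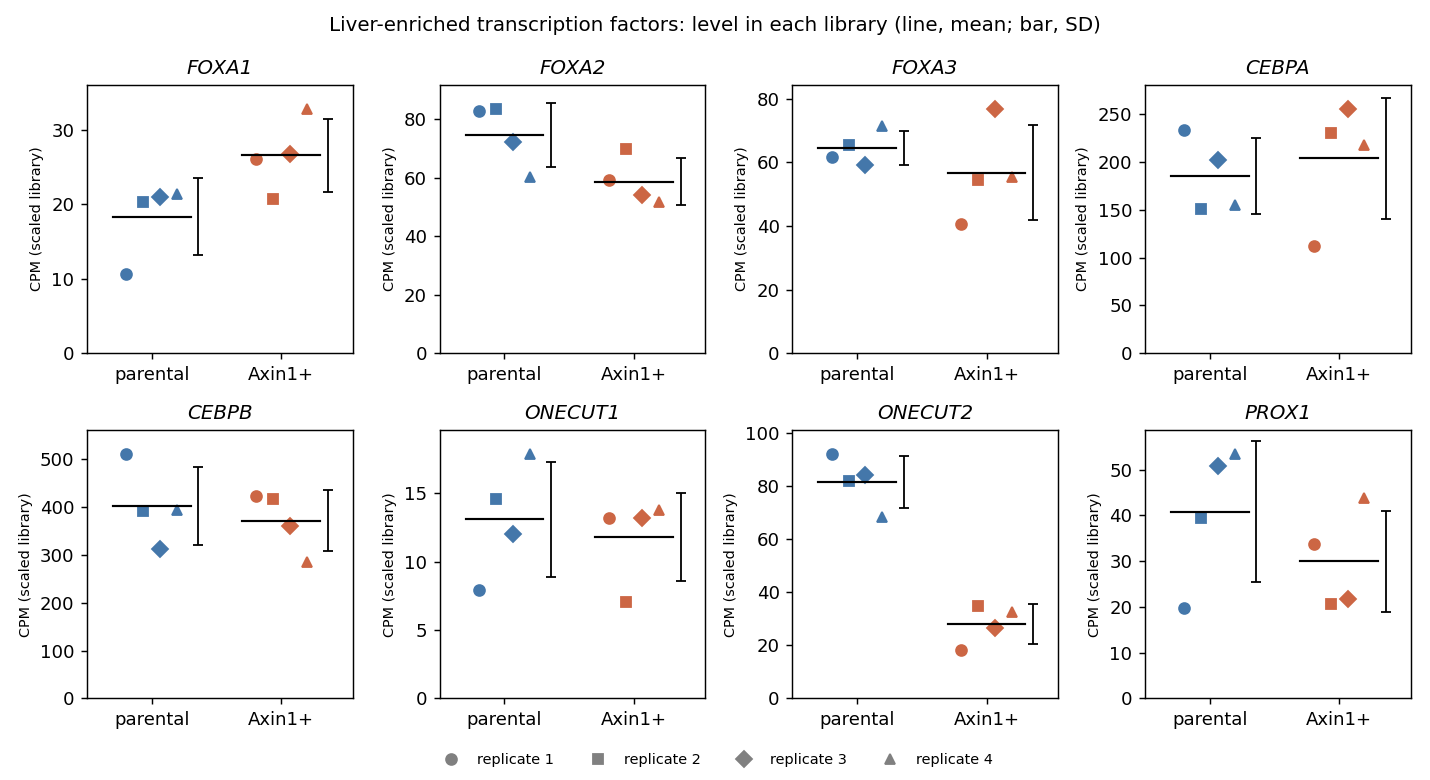
Level of each member (CPM, y axis from 0) in the 4 parental (blue) and 4 Axin1+ (orange) libraries, with the symbol giving the replicate number, the line the mean and the bar the SD. The 4 Axin1+ values of ONECUT2 lie between 18.1 and 34.8 CPM, all below the lowest parental value of 68.2 CPM, whereas the groups overlap in the other 7 panels.

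The member that changed was ONECUT2 (ENSG00000119547), on the plus strand of chromosome 18 from 57435685 to 57491297 in GRCh38, which encodes a cut-homeodomain factor related to ONECUT1 and known from liver and endoderm development. It stood at 91.9, 81.8, 84.3 and 68.2 CPM in the 4 parental replicates and at 18.1, 34.8, 26.7 and 32.5 CPM in Axin1+ replicates 1 to 4. All 4 Axin1+ libraries were lower than every parental library, with Axin1+ replicate 1 the lowest. The means were 81.5 CPM ± 9.89 and 28.0 CPM ± 7.46 (SD, n = 4 each), a 2.92-fold lower level. On the log2 scale the change was -1.54 (SE 0.20; 95% interval, -1.98 to -1.11), and the quasi-likelihood test of edgeR gave an adjusted p of 0.000598, rank 175 among all 14289 genes. In 17 alternative analyses the log2 fold change stayed between -1.70 and -1.38 and the adjusted p between 6.8e-11 and 0.0048. The exonic length of ONECUT2 is 16234 bases, the longest of the 8, and no other annotated gene overlaps its exons or starts within 5000 bases of its start. The 40 tested genes around it on the chromosome had a median log2 fold change of 0.17, with 3 of them higher and 2 lower.

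ONECUT1 (ENSG00000169856, chromosome 15, 52756989 to 52791078, minus strand), the founding ONECUT factor of hepatocytes and bile duct cells, did not change with it. Its levels were 7.92, 14.6, 12.0 and 17.8 CPM in the 4 parental replicates and 13.2, 7.02, 13.2 and 13.7 CPM in Axin1+ replicates 1 to 4. The groups overlapped, and the lowest values were those of parental replicate 1 and Axin1+ replicate 2. Its log2 change was -0.15 (SE 0.27; 95% interval, -0.74 to 0.45; edgeR adjusted p = 0.743), an interval that does not reach that of ONECUT2. The difference between the fold changes of the 2 genes was not tested. The sign of the ONECUT1 value turned to 0.04 without parental replicate 4 and to 0.03 without Axin1+ replicate 2. The 40 tested genes around ONECUT1 had a median of 0.38, 10 of them higher and 1 lower. ONECUT3, the third family member, had at most 8 counts in a parental library and at most 2 in an Axin1+ library, and was not tested.

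The ratio of ONECUT1 to ONECUT2, in CPM per kilobase of exon, was 0.363, 0.75, 0.602 and 1.1 in parental replicates 1 to 4. In Axin1+ replicates 1 to 4 it was 3.08, 0.849, 2.08 and 1.78. ONECUT1 was thus the less abundant of the pair per length in 3 of 4 parental libraries, and the more abundant in 3 of 4 Axin1+ libraries. Axin1+ replicate 2 lay inside the parental range. On a log2 scale the mean ratio was -0.62 ± 0.67 and 0.82 ± 0.78 (SD, n = 4 each). Not divided by length, the ratio ran from 0.0862 to 0.261 in the parental and from 0.201 to 0.73 in the Axin1+ libraries. ONECUT2 thus had more counts than ONECUT1 in all 8 libraries, and which of the pair is the more abundant depends on the exon lengths used.

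To show the regions from which the 2 ONECUT genes are transcribed, the 250 bases before their RefSeq starts (GRCh38.p14, each printed 5′ to 3′ on the gene's own strand) are given here. ONECUT1 is chr15:52790337-52790586 on the minus strand, within an intron of a longer noncoding ONECUT1 transcript in GENCODE 29. ONECUT2 is chr18:57435124-57435373 on the plus strand, outside any annotated transcript there.
ONECUT1: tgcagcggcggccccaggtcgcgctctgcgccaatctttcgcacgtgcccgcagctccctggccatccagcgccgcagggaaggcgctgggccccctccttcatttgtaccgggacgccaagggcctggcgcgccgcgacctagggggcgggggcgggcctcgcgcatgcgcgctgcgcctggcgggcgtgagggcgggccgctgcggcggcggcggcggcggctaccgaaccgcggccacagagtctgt
ONECUT2: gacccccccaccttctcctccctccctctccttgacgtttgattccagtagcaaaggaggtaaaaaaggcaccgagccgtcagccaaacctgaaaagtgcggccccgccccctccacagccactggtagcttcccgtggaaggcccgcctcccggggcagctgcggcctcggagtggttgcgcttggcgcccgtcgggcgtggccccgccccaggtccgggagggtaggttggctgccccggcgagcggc

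Neither window held any of the words searched on both strands. These were CTTTGAA, the variant CTTTGAT, the variant CTTTGTA and the variant CTTTGTT for TCF/LEF, the DNA-binding partners of beta-catenin, TGTTTAC and TGTTTGC for FOXA, ATTGAT and ATCGAT for ONECUT, TTGCNNAA for C/EBP, and TATAAA for the TATA box. Of the 35116 windows of this length in the RefSeq table, 12.0% held a TCF/LEF word, 6.09% a FOXA word, 6.19% an ONECUT word, 9.05% the C/EBP word and 10.7% the TATA box. The windows are rich in G and C, at 76.8% for ONECUT1 and 68.8% for ONECUT2 beside a median of 58.0%. Of the 8 members, 6 have an entry in that table, and FOXA2 and PROX1 do not.

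The 3 FOXA genes did not pass the threshold, and the fitted values of FOXA1 and FOXA2 had opposite signs. FOXA1 (ENSG00000129514, chromosome 14, 37589984 to 37596059, minus strand) encodes a pioneer factor of foregut endoderm. Its levels were 10.6, 20.2, 21.02 and 21.4 CPM in the 4 parental replicates and 26.1, 20.7, 26.8 and 32.7 CPM in Axin1+ replicates 1 to 4. Parental replicate 1 lay far below the other parental libraries, and Axin1+ replicate 2 lay inside the parental range. In edgeR the log2 change was 0.54 (SE 0.23; 95% interval, 0.04 to 1.03), with unadjusted p = 0.0367 and adjusted p = 0.122. Without parental replicate 1 the log2 fold change was 0.35 (adjusted p = 0.140 in edgeR).

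FOXA2 (ENSG00000125798, chromosome 20, 22581005 to 22585455, minus strand), which is needed for liver and pancreas specification, stood at 83.0, 83.4, 72.2 and 60.2 CPM in parental replicates 1 to 4. The Axin1+ replicates 1 to 4 held 59.1, 69.7, 54.1 and 51.7 CPM. Axin1+ replicates 1, 3 and 4 were below every parental library, while Axin1+ replicate 2 was above parental replicate 4. In edgeR this came to -0.35 on the log2 scale (SE 0.15; 95% interval, -0.67 to -0.03; unadjusted p = 0.0337, adjusted p = 0.115). FOXA3 (ENSG00000170608, chromosome 19, 45863989 to 45873797, plus strand), the family member most abundant in adult liver, showed 61.6, 65.6, 59.2 and 71.4 CPM in the 4 parental libraries and 40.5, 54.6, 76.7 and 55.4 CPM in Axin1+ replicates 1 to 4. The highest and the lowest FOXA3 values were both in Axin1+ libraries, replicates 3 and 1. Its log2 change was -0.18 (SE 0.18; 95% interval, -0.57 to 0.20; edgeR adjusted p = 0.498).

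The ratio of FOXA1 to FOXA2 per kilobase was 0.0835, 0.159, 0.19 and 0.232 in parental replicates 1 to 4, and 0.289, 0.194, 0.324 and 0.413 in Axin1+ replicates 1 to 4. FOXA2 was the more abundant in all 8 libraries. The mean log2 ratio differed by 0.92 between the groups, from -2.68 ± 0.64 to -1.76 ± 0.45 (SD, n = 4 each), and Axin1+ replicate 2 again fell inside the parental range. FOXA3 and FOXA2 were close to each other, with a ratio from 0.882 to 1.41 in parental and from 0.815 to 1.68 in Axin1+ libraries.

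**Figure D2:**
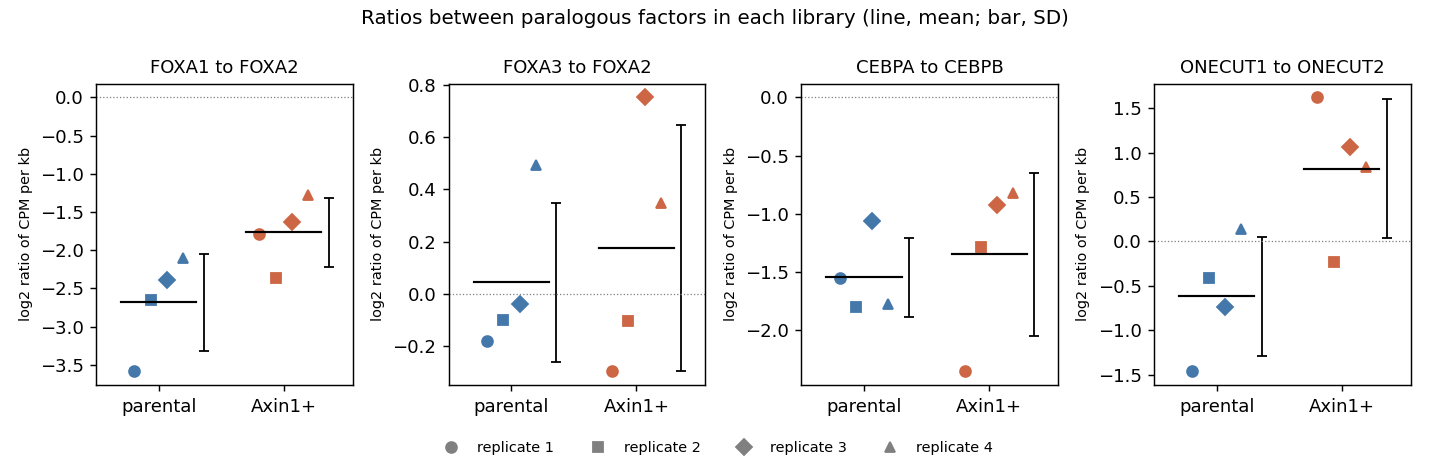
Log2 ratio of CPM per kilobase (y axis) between pairs of related factors in each library, parental in blue and Axin1+ in orange, with the symbol giving the replicate number, the line the mean and the bar the SD. In all 4 panels the groups overlap. The mean ONECUT1 to ONECUT2 ratio lies below 0 in the parental and above 0 in the Axin1+ libraries.

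The 250 bases before the start of FOXA1, which lie at chr14:37595250-37595499 on the minus strand, held 3 of the words searched, the most among the 6 members with an entry. They are shown because a TCF/LEF and a FOXA word overlap there. Of these 250 bases, 99 are exonic in a noncoding FOXA1 transcript of GENCODE 29, and 0 are untranslated region. Capitals mark the words, printed on the gene's strand.
FOXA1: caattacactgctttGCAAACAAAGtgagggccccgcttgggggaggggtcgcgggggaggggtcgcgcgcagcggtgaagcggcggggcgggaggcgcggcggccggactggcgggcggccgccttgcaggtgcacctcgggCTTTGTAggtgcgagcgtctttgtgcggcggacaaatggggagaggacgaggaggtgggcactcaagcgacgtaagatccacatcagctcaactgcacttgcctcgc

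The first run of capitals joins TGTTTGC (FOXA) and CTTTGTT (TCF/LEF), both read on the opposite strand, between 235 and 226 bases before the start. The second is CTTTGTA, a TCF/LEF word from 107 to 101 bases before it. Of the other entries, CEBPA and FOXA3 each held a TATA box that begins 30 bases before the start, and 1 of the 2 RefSeq starts of CEBPB one that begins 29 bases before. By GENCODE 29, the genes' untranslated regions cover 30 bases of the CEBPA window, 182 of the FOXA3 window and 96 of this CEBPB window. A match of letters describes the window and shows no binding.

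The C/EBP genes were the most abundant members and did not differ beyond the spread between libraries. Both lack introns. CEBPB (ENSG00000172216, chromosome 20, 50190734 to 50192689, plus strand), a factor of the acute-phase response and of liver regeneration, stood at 510.5, 391, 313.5 and 395 CPM in parental replicates 1 to 4. It stood at 424, 418, 361 and 286 CPM in Axin1+ replicates 1 to 4. Parental replicate 1 was the highest of all 8 and Axin1+ replicate 4 the lowest. CEBPB had a log2 change of -0.11 (SE 0.18; 95% interval, -0.50 to 0.28; edgeR adjusted p = 0.691), and it was 0.02 without parental replicate 1.

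CEBPA (ENSG00000245848, chromosome 19, 33299934 to 33302564, minus strand), a factor of mature hepatocyte metabolism that restrains proliferation, held 234, 151, 202 and 155.5 CPM in parental replicates 1 to 4. Axin1+ replicates 1 to 4 held 112, 230.5, 255 and 218 CPM. Axin1+ replicate 1 was the lowest of all libraries, and the other 3 of its group lay above parental replicates 2, 3 and 4. For CEBPA the log2 change was 0.13 (SE 0.24; 95% interval, -0.39 to 0.66; edgeR adjusted p = 0.733). Without Axin1+ replicate 1 it was 0.34, with an adjusted p of 0.191 in edgeR. The ratio of CEBPA to CEBPB per kilobase was between 0.287 and 0.48 in parental libraries. It was 0.196 in Axin1+ replicate 1 and 0.41, 0.525 and 0.565 in Axin1+ replicates 2 to 4, so that CEBPB was the more abundant in every library.

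PROX1 (ENSG00000117707, chromosome 1, 213983181 to 214041502, plus strand) varied most among replicates, with a coefficient of variation of 37.6% in the parental and 36.8% in the Axin1+ libraries. Its levels were 19.7, 39.5, 50.9 and 53.3 CPM in the 4 parental replicates and 33.8, 20.6, 21.6 and 43.8 CPM in Axin1+ replicates 1 to 4. Parental replicate 1 was the lowest value of all and the other 3 parental libraries were among the 4 highest. PROX1 had a log2 change of -0.44 (SE 0.32; 95% interval, -1.14 to 0.25; edgeR adjusted p = 0.355). It was -0.67 without parental replicate 1 (edgeR adjusted p = 0.0652) and -0.29 without parental replicate 4. PROX1-AS1, a noncoding gene on the opposite strand that shares 171 exonic bases with PROX1, averaged 4.42 ± 0.851 CPM in the parental and 2.35 ± 0.531 CPM in the Axin1+ libraries (SD, n = 4 per group). It fell by 0.90 on the log2 scale (edgeR adjusted p = 0.0326). This call was lost in 6 of 17 alternative analyses, namely without parental replicates 2 or 4, without Axin1+ replicates 2, 3 or 4 and without an expression filter (edgeR adjusted p up to 0.102).

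Parental replicate 1 and Axin1+ replicate 2 were the 2 lowest libraries for ONECUT1 and for PROX1, and each was the lowest of its own group for FOXA1. Parental replicate 1 had the highest CEBPB and ONECUT2 levels of all libraries. Axin1+ replicate 1 was the lowest library for FOXA3, CEBPA and ONECUT2. Parental replicate 1 had the lowest TMM factor (0.897, others from 0.969 to 1.06). Whether this plays a part in its values was not tested.

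Per kilobase of exon, the order of the members in the parental libraries was CEBPB (206 CPM per kilobase), CEBPA (70.6), FOXA3 (29.4), FOXA2 (28.7), ONECUT2 (5.02), FOXA1 (4.599), PROX1 (4.57) and ONECUT1 (3.40). CEBPB, CEBPA and the FOXA3 and FOXA2 pair were separated from each other in every library. FOXA3 and FOXA2 overlapped, as did each neighbouring pair among the last 4. In the Axin1+ libraries the order was CEBPB (190 CPM per kilobase), CEBPA (77.4), FOXA3 (25.9), FOXA2 (22.5), FOXA1 (6.67), PROX1 (3.35), ONECUT1 (3.06) and ONECUT2 (1.73). ONECUT2 thus moved from the fifth place to the last, where its range still overlapped that of ONECUT1, and FOXA1 stood above PROX1 without overlap. Among all tested genes, the parental means ranked from the 44.2 percentile for ONECUT1 to the 98.5 percentile for CEBPB. The parental mean of ONECUT2 was at the 53.6 percentile.

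Exons of 4 other members touch annotated genes on the opposite or the same strand, and the sources used here do not give whether counting used the strand. FOXA1 shares 16 exonic bases with TTC6 (1.07 and 1.04 CPM on average), and CEBPB shares 231 bases with CEBPB-AS1 (1.67 and 0.994 CPM). FOXA2 shares 70 bases with AL121722.1, a gene on its own strand that had no count in any library. CEBPA shares 659 and 482 bases with 2 antisense genes at averages of 0.489 to 1.41 CPM. CEBPA-DT, which starts 293 bases from CEBPA in the opposite direction without sharing exons, stood at 7.01 ± 2.25 CPM in the parental and 8.81 ± 2.90 CPM in the Axin1+ libraries (SD, n = 4 per group; log2 fold change 0.33, edgeR adjusted p = 0.482).

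Close relatives of the members were measured in the same way. Of 6 relatives, 3 were tested and 0 passed the threshold in edgeR or in any alternative, DESeq2 and limma-voom included, and none had an unadjusted p under 0.05. CEBPD, a C/EBP factor of the acute-phase response, had a log2 fold change of -0.02 (95% interval, -0.43 to 0.39), CEBPG, a widely expressed dimer partner, of 0.26 (-0.03 to 0.54), and DDIT3, a stress-induced C/EBP antagonist, of -0.11 (-0.68 to 0.46). CEBPE and PROX2 had no count in any library. The sign of the CEBPD value turned to 0.07 with total counts only and to 0.16 with the GC and length offset.

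**Figure D3:**
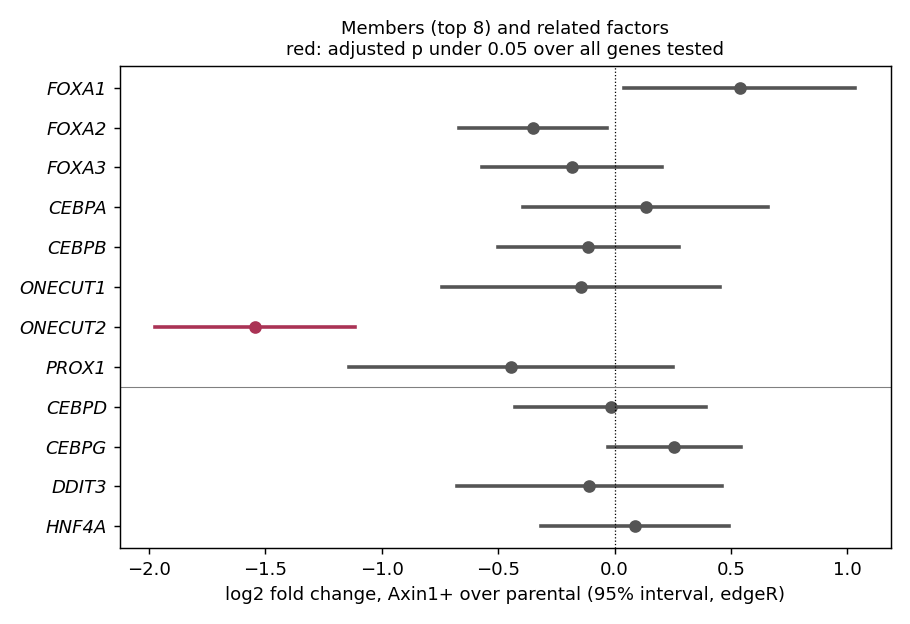
Log2 fold change, Axin1+ over parental (x axis), with 95% confidence intervals for the 8 members (above the line) and 4 related factors. ONECUT2, in red, is the gene with an adjusted p under 0.05, at -1.54 with an interval of -1.98 to -1.11.

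Among 18 other factors of the hepatocyte network, 17 were tested, of which 0 rose and 2 fell. Beside this count and those of the lists below, 19.2% of all genes tested passed the threshold, 10.4% higher and 8.77% lower. The median log2 fold change of the 17 factors was -0.08. The 2 that fell were TBX3, a T-box factor and Wnt target in liver (log2 fold change -1.47, edgeR adjusted p = 0.0252), and KLF15, a factor of fasting metabolism (log2 fold change -0.93, edgeR adjusted p = 0.0463). Neither call held in all 17 alternative analyses. The TBX3 call was lost in 7 of them (edgeR adjusted p up to 0.0846). These were the replicate block and the fits without parental replicates 2, 3 or 4 or Axin1+ replicates 2, 3 or 4. The log2 fold change of TBX3 stayed between -1.76 and -1.25 in all 17. The KLF15 call was lost without any library other than parental replicate 2, with total counts only and with limma-voom. Its log2 fold change was -0.55 without parental replicate 1. HNF4A, the nuclear receptor at the centre of the network, averaged 307 ± 61.1 CPM in the parental and 326.5 ± 64.1 CPM in the Axin1+ libraries (SD, n = 4 per group). Its log2 change was 0.09 (95% interval, -0.32 to 0.49; edgeR adjusted p = 0.772), whose sign turned to -0.01 with the GC and length offset and to -0.03 without parental replicate 1.

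The genes that these factors are known to act on moved in both directions. Of 18 secreted hepatocyte products, all tested, 5 rose and 5 fell, with a median log2 fold change of -0.53. The 5 with the smallest p-values were FGB and FGG, fibrinogen chains (log2 fold changes 2.05 and 1.60), AHSG, fetuin A (-3.22), APOA2, an apolipoprotein of high-density lipoprotein (-2.14), and VTN, vitronectin (1.25), with edgeR adjusted p from 6.4e-05 to 0.000701. These 5 calls held in all 17 alternative analyses. Of 15 liver enzymes 9 were tested, 1 of them higher and 4 lower, with a median of -0.67. CPS1, the first enzyme of the urea cycle, fell by 0.67 on the log2 scale (edgeR adjusted p = 0.00971) and ARG1, arginase, fell by 2.91 from 1.08 CPM (edgeR adjusted p = 0.0134). ARG1 had 0 to 6 counts in each Axin1+ library, and its log2 fold change was -3.52 without Axin1+ replicate 3. UGT1A1, a bilirubin conjugating enzyme whose last exons are shared with the other UGT1A genes so that its counts are uncertain, rose by 2.19 (edgeR adjusted p = 0.000912). G6PC1, the glucose-releasing phosphatase of gluconeogenesis, fell by 1.69 (edgeR adjusted p = 0.0392). Its log2 fold change was -2.71 without Axin1+ replicate 1, and the call was lost with total counts only and without any one of parental replicates 2 to 4 or Axin1+ replicates 2 to 4. CYP2E1, a pericentral cytochrome P450, fell by 1.91 (edgeR adjusted p = 0.0284). The value was -1.18 without parental replicate 1, and the call was lost with the replicate block and without any one of the Axin1+ libraries. Without Axin1+ replicates 2, 3 or 4, 3 enzymes passed the threshold in place of 5.

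Of 12 acute-phase and C/EBP-beta target genes, 10 were tested, and 5 passed the threshold as higher and 0 as lower. Their median log2 fold change was 1.12, but 4 of the 10 lay below 0, among them CXCL8 at -1.22 (edgeR adjusted p = 0.054). With the DESeq2 Wald test, 1 gene of the list was called lower. In edgeR 1 was also called lower without an expression filter, with the GC and length offset, without parental replicate 1 and without Axin1+ replicate 1. CEBPB and CEBPD themselves showed the values near 0 given above. SAA1 and SAA2, serum amyloid A genes, had at most 3 and 1 counts in each parental library and 10.5 CPM ± 3.58 and 2.68 CPM ± 1.02 (SD, n = 4 each) in the Axin1+ libraries. Against 3 counts per library they were at least 44.1-fold and 11.3-fold higher (edgeR adjusted p = 8.8e-06 and 0.000116). The 2 are near-identical copies whose reads can be split between them. LCN2, an iron-binding acute-phase protein, ranged from 11.3 to 79.6 CPM in the parental and from 227 to 415 CPM in the Axin1+ libraries (log2 fold change 3.24, edgeR adjusted p = 0.00371, and 4.35 without parental replicate 1). HPX, hemopexin, was at 2.41 ± 0.728 and 7.97 ± 1.69 CPM (SD, n = 4 per group) and rose by 1.72 on the log2 scale (edgeR adjusted p = 0.00175). CRP, C-reactive protein, had a log2 fold change of 2.88 (edgeR adjusted p = 0.0376), with 64.8 CPM in Axin1+ replicate 1. Without that library the value was 1.25 with an adjusted p of 0.0994 in edgeR, and the call was also lost with limma-voom and without any one of parental replicates 2 to 4. IL6 had no count.

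**Figure D4:**
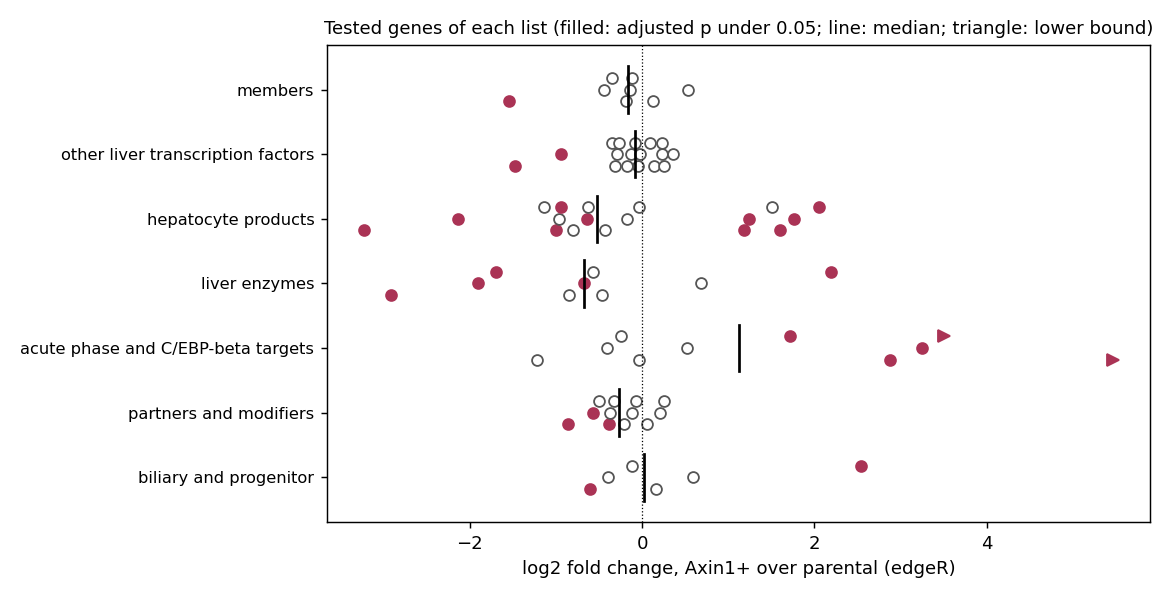
Log2 fold change, Axin1+ over parental (x axis), of the tested genes of the members and of 6 lists, with filled points for an adjusted p under 0.05, black lines for the list medians and triangles for SAA1 and SAA2 at their lower bounds. The members lie between -1.54 and 0.54, whereas called genes of the products and enzymes lists extend on both sides of that range and those of the acute-phase list lie above it.

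Among 14 partners and modifiers of the members, 12 were tested, 0 rose and 3 fell, with a median of -0.27. GATA3, a zinc finger factor, fell by 0.86 on the log2 scale (edgeR adjusted p = 0.0133). HDAC1, a histone deacetylase, fell by 0.38 and SMAD3, a TGF-beta signal transducer, by 0.56 (edgeR adjusted p = 0.0358 and 0.0459). The calls of HDAC1 and SMAD3 were lost with total counts only and without any one of parental replicates 2 or 4 or Axin1+ replicates 2 to 4, which each left 1 gene of the list called. That of HDAC1 was also lost without parental replicate 3, without an expression filter and with the replicate block. The 7 biliary and progenitor genes, 6 of them tested, held 1 call in each direction, with a median of 0.02. CFTR, the chloride channel of bile duct cells, was at 1.96 ± 1.09 and 11.5 ± 2.89 CPM (SD, n = 4 per group) and rose by 2.54 on the log2 scale (edgeR adjusted p = 0.00173). SOX4, a progenitor factor, fell by 0.60 (edgeR adjusted p = 0.0415). This call was lost with total counts only, with the replicate block and without parental replicates 1, 2 or 3 or Axin1+ replicates 1, 3 or 4. The bile duct keratins did not pass the threshold, with log2 fold changes of -0.12 for KRT7 and 0.59 for KRT19.

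The genes most like each member were those with the highest Pearson correlation of log2 CPM over the 8 libraries, among 12941 genes with a mean of at least 1 CPM. The libraries share their group and their depth with every gene, so these are descriptions. For ONECUT2 they were NIT2, an omega-amidase (r = 0.98), and ZC3H6, a zinc finger gene (r = 0.98), both lower in the Axin1+ libraries, with log2 fold changes of -0.44 and -2.24 (edgeR adjusted p = 0.0166 and 0.00124). For FOXA1 they were SPTLC1 and GOLPH3, for FOXA2 SMIM6 and EIF1AD, for PROX1 CEP57, and for ONECUT1 TRRAP and TIMM23B, with r from 0.96 to 0.99. For CEBPB they were GADD45B, a stress-response gene, and PTRHD1, for CEBPA PEX14 and GEMIN7, and for FOXA3 CLPTM1L and UBL7, with r from 0.94 to 0.98. None of the genes named for these 7 members passed the threshold between the groups.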

How the data were processed

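The authors deposited raw counts per gene for 8 mRNA libraries (4 parental, 4 Axin1+), matched to samples by the column names in the labels, with 0 columns of no sample. Per the submitters' processing notes, bcl2fastq, fastp 0.23.1, STAR 2.7.4 and GRCh38 were used. The counting program, annotation and use of strand are not given in the sources used here. Identifiers were matched to GENCODE release 29 (57943 of 58206) and a symbol table (57495). Counts were filtered (filterByExpr, minimum count 10, minimum total 15), scaled by TMM and tested with edgeR 4.0.16 in R 4.3.3 (quasi-likelihood, no covariates), with Benjamini-Hochberg adjustment over 14289 genes and a threshold of 0.05. The fit was tested on simulated data. Each SE was taken as the size of the log2 change divided by the root of its F statistic. Correlations used log2 CPM with a prior count of 2. Floors of 3 counts (0.108 to 0.267 CPM per library) cover counting error only. Alternatives used DESeq2 1.42.0, limma 3.58.1, other scalings and filters, an offset for GC content and length (splines, 5 degrees of freedom), a replicate block, a threshold of 0.01 and leaving out each library. The members, gene lists and tests were chosen with earlier results of these data known. Named genes are the members, their relatives and annotated neighbours, AXIN1, HNF4A, up to 5 called genes per list by p-value, and the 2 best correlated genes per member, of which some are not reported here. Others, such as the markers, KRT7, KRT19, CXCL8, IL6 and the at-0 genes, were named after their values were seen.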

Additional observations from a re-analysis of the deposited data

Results flagged for a closer look

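Among 78 groups of 4 libraries, 1 for each named gene and label, 10 had a library far from the other 3, where chance gives about 1 in 20. Of the members, FOXA1 stood at 10.6 CPM in parental replicate 1 against 20.2 to 21.4 in the others, and ONECUT1 at 7.02 CPM in Axin1+ replicate 2 against 13.2 to 13.7. AXIN1 stood at 37.7 CPM in Axin1+ replicate 4 against 47.6 to 48.2.

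Of the other genes, 3 were set apart by Axin1+ replicate 1: FGB at 2260 CPM against 3450 to 3500, G6PC1 at 140 CPM (139.5) against 24.7 to 29.5, and CRP at 64.8 CPM against 3.90 to 12.8. Parental replicate 1 stood apart in CYP2E1, at 5.34 CPM against 1.22 to 1.72, and in LCN2, at 79.6 CPM against 11.3 to 15.6. LCN2 was also set apart in Axin1+ replicate 2, at 415 CPM against 227 to 258. ARG1 stood at 1.42 CPM in parental replicate 2 against 0.93 to 0.98.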

How the results depend on the processing

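The ONECUT2 call and the count of 1 called member held in all alternatives. Members that did not pass the threshold did not pass it in any of 17 alternatives. Leaving out single libraries moved log2 fold changes from -0.22 to 0.02 for CEBPB, from -0.32 to 0.039 for ONECUT1 (0.031 without Axin1+ replicate 2), from -0.13 to 0.13 for CEBPD, from -0.31 to 0.11 for DDIT3 (0.001 without Axin1+ replicate 4) and from -0.032 to 0.19 for HNF4A. CEBPD was 0.068 with total counts only, 0.012 without an expression filter and 0.16 with the GC and length offset, which gave -0.014 for HNF4A. The cause was not tested. Over all genes, leaving out 1 library gave 1394 to 3523 calls and the threshold of 0.01 gave 964. For the other liver factors the count was 1 with total counts only, 1 with limma-voom, 1 with the replicate block, 4 with the DESeq2 Wald test, 0 at 0.01 and 0 to 1 with a library left out. For enzymes it was 2 at 0.01 and 3 to 7 with a library left out. For partners it was 1 with total counts only, 5 with the offset, 0 at 0.01 and 1 to 4 with a library left out. For biliary genes it was 1 with total counts only, with the block and at 0.01, and 1 to 3 with a library left out. Deviations from the group means correlated at r from -0.06 to 0.23 between same-numbered libraries and from -0.425 to 0.448 between libraries of unlike number. These values cannot show whether the number marks a pairing. With the replicate block 2033 genes passed, and ONECUT2 was at -1.57 (edgeR adjusted p = 0.0048). The block ended the calls of TBX3, CYP2E1, HDAC1 and SOX4 (edgeR adjusted p from 0.0675 to 0.0976). Members' counts ranged from 85 to 11822 per library, and depth limits ONECUT3 and the genes near 0.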
